A study of Mus musculus with 43 samples.

Results

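Established pluripotent lines of the Mbd3f/- system were set against the last days of reprogramming of the same system. The comparison uses 4 of the 43 libraries of the series: 1 library of day 7, 1 of day 8, 1 of an induced pluripotent stem cell (iPSC) line and 1 of an embryonic stem cell (ES) line. Genes with a level of at least 1 FPKM, which scales fragments by transcript length and library size, in at least 2 of the 4 libraries were tested, which gave 13581 genes. Of these, 6542 genes were kept, because both lines lay on the same side of both days in log2(FPKM + 1).

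Expression of polyadenylated RNA was measured along reprogramming courses of mouse embryonic fibroblasts (MEF) with a doxycycline-inducible cassette of Pou5f1, Klf4, Sox2 and Myc. All 4 libraries are labelled Mbd3f/-, with 1 floxed and 1 deleted allele of Mbd3, a subunit of the NuRD complex, so none is labelled wild type. For ES this rests on the sample label, since the design text does not say clearly whether the ES line derives from V6.5, the ES line it names for wild type. Cells of days 7 and 8 had received doxycycline from day 0 at 5% oxygen, first with serum and LIF. The design text dates the switch to a medium based on serum replacement at day 3.5, together with 2i, the inhibitors of MEK and of GSK3; the growth protocol dates 2i earlier. The iPSC line had been passaged at least 3 times, and both lines were collected after 3 to 4 days in N2B27-based medium with 2i and LIF. Day 7, day 8 and both lines grew on irradiated human foreskin fibroblasts. The labels do not state whether doxycycline and low oxygen were present in the line cultures. Time, passage and medium change together between the groups, possibly with doxycycline and oxygen, and their shares cannot be told apart. Separate cultures are not named for the libraries, and each group holds 2 unlike samples (successive days, or lines of different origin). A p-value here measures the spread between such samples. Libraries of the Gatad2a-/- system (days 7 and 8 and 1 iPSC line, with the same treatment and loss of another NuRD subunit) share no sample with the comparison and were used beside it.

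NuRD joins a nucleosome remodeller, histone deacetylases and the methyl-CpG-binding domain proteins Mbd2 or Mbd3, and is known for restraining transcription at enhancers and promoters. Naive pluripotent cells in 2i and LIF depend on Pou5f1, Sox2, Nanog, Esrrb and Klf factors, have low DNA methylation, and are known to transcribe part of the germline program. Fibroblasts on the way to that state pass through a mesenchymal-to-epithelial transition, and genes of epithelia and of other lineages can be expressed for a time.

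Marker genes fixed for the cell types gave the state of the 4 libraries. The 11 pluripotency markers were all at an FPKM of at least 1 in each of the 4 libraries, against 2 of 11 in MEF. The 10 fibroblast markers summed to 29.6 (day 7), 41.2 (day 8), 28.4 (iPSC) and 27.6 (ES), against 7751 in MEF. Keratinocyte markers summed to 38.7, 10.4, 1.83 and 0.266 in the same order, of which Krtdap made up 38.0, 8.97, 1.34 and 0.232. Among macrophage and blood markers, Ptprc and Tyrobp were at or near 0 in all 4 libraries, and the sums of 21.8 to 42.0 came mostly from Cd68. In bulk samples, fewer cells of a type and less RNA per cell cannot be told apart.

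No gene passed the limma test at an adjusted p of 0.05 among the 4 libraries (0 of 13581 genes, 0% called). The lowest adjusted p was 0.0538, and 1777 genes (13.1%) had an unadjusted p under 0.05. With all 11 Mbd3f/- libraries in the fit, limma called 190 genes higher (1.4%) and 277 lower (2.04%), 467 in all. That count fell to 4 without day 7, to 134 without day 8 and to 292 without ES, and it was 2793 without iPSC. Values below are therefore given per library, and "higher" or "lower" means that both lines lay outside the range of both days. By that rule 3132 genes (23.1%) were higher and 3410 (25.1%) lower, 48.2% in all, and the median difference over all genes was -0.02. Leaving out iPSC gave 12034 genes outside the range and leaving out ES gave 11195, since 1 library then stands for the lines. Arl1, a small GTPase of the Golgi, lay just inside the rule (29.8 and 28.4 (days 7 and 8), 29.8 (iPSC) and 40.0 (ES)). Ap3b1, a subunit of a vesicle adaptor, lay just outside (30.3, 29.8, 29.8 and 25.1). For 160 genes (1.18%) the lines were higher with a gap of at least 1 log2 unit to the nearest day, and for 313 genes (2.3%) they were lower by such a gap.

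The 15 genes with the largest differences in each direction are named first; none passed the test among the 4 libraries. Higher in both lines were meiotic and germline genes (Stra8, Syce1, Rhox13, Fkbp6, Dazl, Sohlh2), the ETS factor Etv4, the small GTPases Mras and Rragb, the adhesion molecule Icam1, Pla2g1b, Hal, Slc30a2, Krt42 and the small nucleolar RNA Snora33. Lower were the lectin gene Clec2i, the acute phase gene Saa3, Dppa3, the cell surface genes Gpnmb, Fcgr3, Ly6g6c, Enpp3, Cd109 and Bst2, Cml3, Serpina3m, Krtdap, a T cell receptor gamma constant segment (Tcrg-C1), Snord22 and Mir1191. Snora33, Snord22 and Mir1191 are short RNAs that polyadenylated libraries measure poorly, and some of their values are listed as 0. In the 11-library fit 12 of the 15 higher and 12 of the 15 lower genes passed, against 1.4% and 2.04% of all genes. The genes were picked by size from 4 of these 11 libraries, so this count is no independent support.

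**Figure D1:**
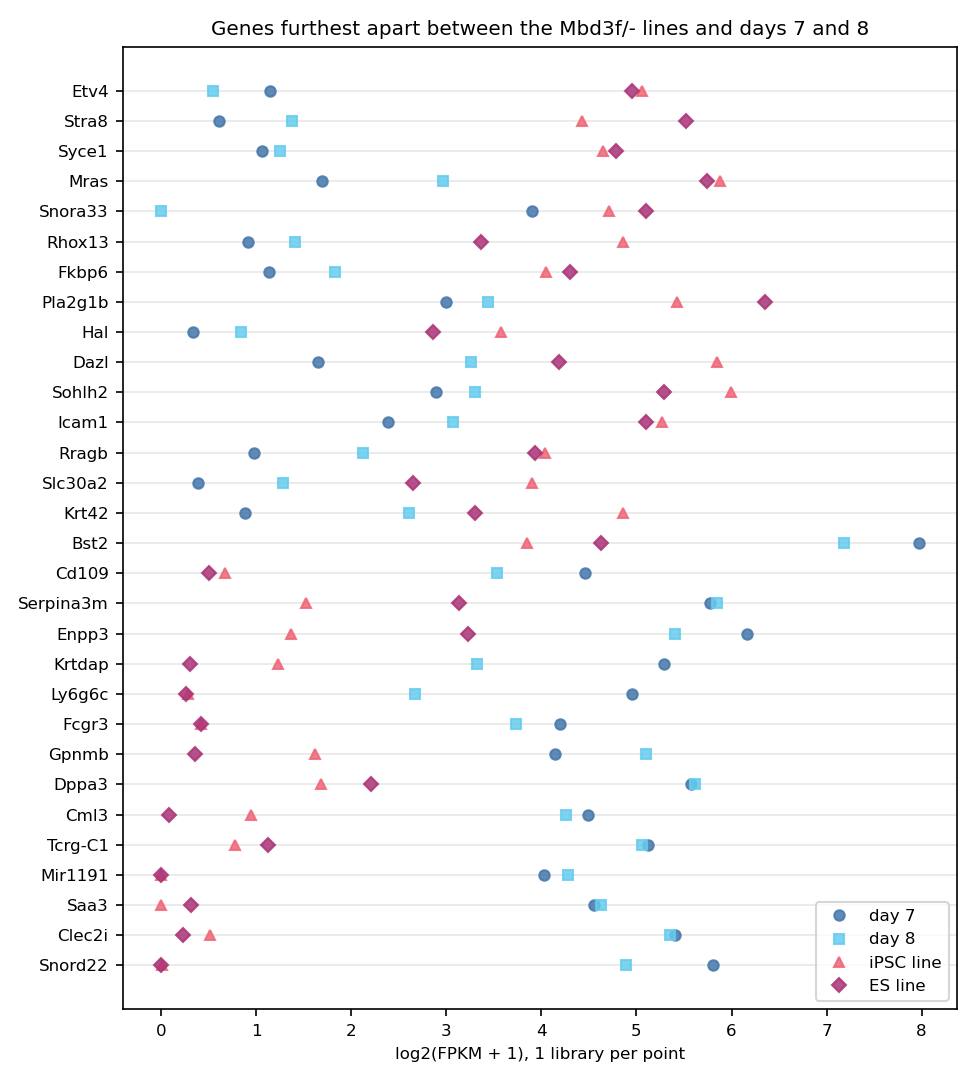
Level of the 30 named genes in each library, as log2(FPKM + 1) on the horizontal axis; circles and squares are days 7 and 8, triangles and diamonds the iPSC and ES lines. For each gene both lines lie to one side of both days; for Snora33 and Krtdap the days themselves are far apart.

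Etv4 showed the largest higher value among genes past the naming rule. It encodes an ETS transcription factor downstream of FGF and ERK signalling. Its FPKM was 1.20 (day 7), 0.462 (day 8), 32.3 (iPSC) and 30.0 (ES). The groups were far apart and the lines were close to each other, with a difference of 4.16 ± 0.32 (SE) in log2(FPKM + 1) and an adjusted p of 0.0538, or 0.00221 in the 11-library fit. MEF stood at 9.15, so days 7 and 8 were also below the starting cells. Mras, a relative of the Ras GTPases, was at 2.23, 6.82, 57.7 and 52.7 in the order day 7, day 8, iPSC, ES. Icam1, an adhesion molecule used to sort late stages of reprogramming, was at 4.24, 7.42, 37.6 and 33.4. Both genes were high in both lines to nearly the same level.

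Mbd3, the subunit with 1 deleted allele in this system, was at 55.8 and 61.5 (days 7 and 8), 43.1 (iPSC) and 36.3 (ES). Both lines were below both days, by 0.56 ± 0.23 in log2(FPKM + 1), with an adjusted p of 0.402. These values do not check the genotype, since all 4 libraries are labelled with it and reads outside the floxed exons are counted. Gatad2a, the NuRD subunit deleted in the other system, was at 29.1, 33.7, 37.8 and 21.3, and the groups overlapped. Of 15 NuRD genes tested, 6 were lower and 2 higher, against 25.1% and 23.1% of all genes. The lower ones include the alternative MTA subunits Mta3 (114, 113, 64.3 and 49.8) and Mta1 (46.2, 47.9, 35.5 and 17.9) and the remodeller Chd3 (10.6, 12.3, 6.47 and 5.47). The remodeller of the main complex, Chd4, overlapped (69.8, 63.4, 73.0 and 69.6). Only Mta3 passed in the 11-library fit (adjusted p 0.0455).

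The induced factors gave little contrast. Pou5f1 was at 1151 and 1377 (days 7 and 8), 1197 (iPSC) and 1971 (ES). Sox2 was at 137, 182, 153 and 139, and Klf4 at 27.7, 55.5, 81.8 and 41.8. For all of these the groups overlapped, and transcripts of the cassette and of the endogenous genes cannot be told apart. Myc differed: its FPKM was 1.01 (day 7), 3.65 (day 8), 7.53 (iPSC) and 17.6 (ES), with an adjusted p of 0.265. Both lines were above both days for Myc, and MEF lay between the lines.

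Of 19 transcription factors of the naive network, 6 were higher in both lines and 0 lower, against 23.1% and 25.1% of all genes. The other 13 overlapped, and the median difference of the 19 was 0.23 against -0.02 over all genes. Their median level was 4.74 (day 7), 5.15 (day 8), 5.79 (iPSC) and 5.54 (ES) in log2(FPKM + 1), against 0.57 in MEF. Nanog was at 275, 314, 373 and 321, and Esrrb overlapped at 113, 159, 208 and 143. Zfp42 (Rex1), a marker of the naive state, was at 212, 256, 360 and 392. The largest differences belonged to Tcl1 (23.7, 24.7, 48.5 and 60.4), a cofactor of Akt, and Rarg (19.5, 27.2, 60.4 and 44.1), a retinoic acid receptor. In Gatad2a-/-, where a single line is set against the days, 38.3% of all genes lay above and 35.8% below both days. There 17 of the 19 were above, with a median of 0.62.

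Of 25 genes of the early embryo tested, 7 were higher and 7 lower, near the shares over all genes (23.1% and 25.1%), but single members differed widely. Dppa3 (Stella), a maternal factor that guards DNA methylation marks and is often used to mark naive and germ cells, was at 46.5 on day 7 and 47.9 on day 8 but at 2.21 in iPSC and 3.63 in ES. The days were alike and both lines were far below them (difference -3.64 ± 0.28, adjusted p 0.0538, or 0.00417 in the 11-library fit). MEF stood at 0.171, day 4 at 0.261 and day 6 at 11.9, so days 7 and 8 held the highest levels of the course. In Gatad2a-/- the same gene was at 69.2 and 67.1 on days 7 and 8 and 3.15 in iPSC. WT-1 lines, in a table normalized separately, were at 10.8 in iPSC and 22.3 in ES. Utf1, a chromatin protein of pluripotent cells, was also lower (93.6, 115, 46.6 and 30.5), as was the adhesion gene Epcam (112, 81.8, 15.3 and 51.2). In the other direction Rex2 was at 5.91, 20.1, 44.6 and 51.3, and Trh, the thyrotropin-releasing hormone gene, at 68.3, 83.3, 168 and 234.

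Meiotic and germline genes were higher in both lines for 20 of 35 tested, against 23.1% of all genes, and lower for 6. Their median difference was 0.89. The list was written with earlier results of these data known. Promoter sequences of 4 of the 20 are shown because they hold the palindrome CACGTG, the core of the E-box bound by Max and its partners, which are known to keep germline genes silent. Sequences are RefSeq promoters of build GRCm38.p6, from 250 bases before to 50 bases after the start, 5′ to 3′ on the gene's strand, with CACGTG in capitals.
Mael, chr1:166238695-166238994, minus strand: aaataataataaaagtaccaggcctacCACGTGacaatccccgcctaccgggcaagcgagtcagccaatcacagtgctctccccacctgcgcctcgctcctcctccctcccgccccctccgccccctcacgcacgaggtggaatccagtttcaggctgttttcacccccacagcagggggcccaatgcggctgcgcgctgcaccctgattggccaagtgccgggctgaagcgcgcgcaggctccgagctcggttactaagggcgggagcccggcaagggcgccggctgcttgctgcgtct
Hormad1, chr3:95559427-95559726, plus strand: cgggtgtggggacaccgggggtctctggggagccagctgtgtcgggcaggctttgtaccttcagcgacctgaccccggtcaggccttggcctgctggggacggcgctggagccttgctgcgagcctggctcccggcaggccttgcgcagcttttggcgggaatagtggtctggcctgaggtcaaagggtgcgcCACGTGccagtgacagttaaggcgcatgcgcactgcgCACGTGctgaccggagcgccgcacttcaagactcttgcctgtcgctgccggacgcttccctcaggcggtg
Stk31, chr6:49395289-49395588, plus strand: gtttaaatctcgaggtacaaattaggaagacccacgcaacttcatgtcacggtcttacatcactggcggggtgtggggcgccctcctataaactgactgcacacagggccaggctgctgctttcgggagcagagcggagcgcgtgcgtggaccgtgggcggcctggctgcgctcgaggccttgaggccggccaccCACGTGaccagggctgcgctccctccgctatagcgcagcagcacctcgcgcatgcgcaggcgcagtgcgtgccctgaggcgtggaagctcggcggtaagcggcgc
Mov10l1, chr15:88982744-88983043, plus strand: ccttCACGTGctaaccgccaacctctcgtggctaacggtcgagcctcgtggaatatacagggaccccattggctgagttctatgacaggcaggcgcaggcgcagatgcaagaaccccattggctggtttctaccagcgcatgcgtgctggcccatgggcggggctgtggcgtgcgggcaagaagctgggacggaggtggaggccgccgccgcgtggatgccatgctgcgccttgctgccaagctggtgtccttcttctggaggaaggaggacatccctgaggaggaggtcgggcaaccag

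These 4 promoters belong to Mael and Mov10l1, which act in the piRNA pathway, Hormad1, which sits on meiotic chromosome axes, and Stk31, a germ cell kinase. The motif was searched on both strands, and as a palindrome it reads the same on each. Promoters were found for 19 of the 20 higher genes (22 promoters), and 9 of these (40.9%) held CACGTG, in 7 genes. Among all 32851 promoters of the same length the share was 7.15%, and among the 13 promoters of the other germline genes tested it was 3 (23.1%). By gene it was 7 of 19 higher genes against 3 of 11 other members. The members were chosen as germline genes, so a share above that of all promoters says nothing about lines and days. A match is a description of these letters and not a binding site.

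Syce1, a component of the synaptonemal complex, was at 1.09 (day 7), 1.38 (day 8), 24.0 (iPSC) and 26.6 (ES), the widest gap of the list (3.39 log2 units between the nearest values). Its difference was 3.56 ± 0.26 with an adjusted p of 0.0538, or 0.000908 in the 11-library fit. Stra8, the gate of meiotic entry, was at 0.520, 1.59, 20.6 and 45.0. Dazl, an RNA-binding protein of germ cells, was at 2.14, 8.58, 56.6 and 17.1, and Sohlh2, a bHLH factor of gonocytes, at 6.41, 8.88, 62.8 and 38.1. For each of these day 8 lay above day 7 and both lines lay above day 8. Of the genes with printed promoters, Mael was at 0.690, 1.37, 3.49 and 13.5 and Hormad1 at 2.36, 6.62, 12.9 and 27.1. Stk31 was at 1.67, 1.85, 6.54 and 12.1 and Mov10l1 at 0.411, 0.615, 2.98 and 5.12. Mov10l1 was under 1 on both days, so it passed the filter through the lines alone and could only count as higher. ES was above iPSC for all 4 genes with printed promoters. Not all members followed: Rhox5, a homeobox gene of the X chromosome, was at 321, 266, 139 and 46.8, and Piwil2, a piRNA-binding protein, at 7.62, 5.70, 3.20 and 3.31.

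In Gatad2a-/- 11 of the 35 germline genes were above and 8 below both days, against 38.3% and 35.8% of all genes there. Stra8 had the same direction there (0.856 and 2.14 on days 7 and 8, 20.9 in iPSC), and Dazl did not (1.24, 10.7 and 2.59). The test of the difference between the systems called 0 of the 35. Over all 13579 genes in both tables it called 6, so 0 says little about this list. In the WT-1 system Stra8 was at 57.8 in iPSC and 5.34 in ES, and Syce1 at 11.4 and 8.51. Those tables were normalized separately, so levels are only set side by side.

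Epithelial and keratinocyte genes were lower in both lines for 16 of 20 tested, against 25.1% of all genes, and higher for 1. The median difference was -1.43. Simple keratins stood out: Krt8 was at 40.7 (day 7), 21.2 (day 8), 5.16 (iPSC) and 0.772 (ES), and its partner Krt18 at 20.0, 21.1, 5.16 and 2.50. Both keratins were below both days in each line, and ES was the lowest. Tight junction genes followed, with Cldn4 at 83.8, 119, 31.4 and 9.66 and Cldn3 at 6.54, 4.17, 0.661 and 0.0608. Cldn3 was under 1 in both lines, so it passed the filter through the days alone and could only count as lower. Krtdap, a secreted keratinocyte protein, was at 38.0, 8.97, 1.34 and 0.232; it had been at 215 on day 4 and 0.466 in MEF. Rab25, a vesicle GTPase of epithelia, was at 20.4, 14.9, 1.49 and 2.49 (difference -2.65 ± 0.33, adjusted p 0.0863, or 0.0143 in the 11-library fit). The defining keratinocyte genes Krt5, Krt14, Krt6a and Trp63 were below 1 in all 4 libraries, and the part of another cell type in the result was not tested. In Gatad2a-/- 17 of the 20 were lower, against 35.8% of all genes there, with a median of -1.42.

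Other genes of this kind were high on the late days and low both before and after. Clec2i, a C-type lectin, was at 0.0849 on day 4, 41.4 (day 7), 40.0 (day 8), 0.425 (iPSC) and 0.176 (ES). The difference of -5.01 ± 0.27 was the largest of a protein-coding gene (adjusted p 0.0538, or 0.000936 in the 11-library fit). Serpina3m, a serine protease inhibitor, was at 0.131 on day 4 and then at 53.5, 56.6, 1.88 and 7.74. Tcrg-C1 was listed at 0 on day 4 and was at 33.7, 32.3, 0.713 and 1.18. Enpp3, an ectoenzyme, was at 0.856 on day 4 and at 70.8, 41.3, 1.58 and 8.37. These 4 genes were low on day 4, between on day 6 (13.6 for Clec2i) and low again in the lines. Clec2i, like Saa3 and Fcgr3 below, was under 1 in both lines. Such genes passed the filter through the days alone and could only count as lower. Saa3 and Fcgr3, genes of the acute phase and of macrophages, had been high in MEF (322 and 62.9), were at 22.5 and 17.3 on day 7 and 23.7 and 12.3 on day 8, and were at or under 0.338 in both lines. Over the 313 genes that were lower by a gap of at least 1, the highest library of the course was day 7 or 8 for 154 genes, days 1 to 6 for 111 and MEF for 48.

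Interferon-stimulated genes were lower in both lines for 16 of 20 tested and higher for 0, against 25.1% and 23.1% of all genes. Their median difference was -1.01. This list too was written with earlier results of these data known. Promoters of 3 of the 16 are shown because they hold 2 copies of GAAA with any 2 bases between them, the core of the element bound by interferon regulatory factors, in capitals here (build GRCm38.p6, RefSeq, 5′ to 3′ on the gene's strand).
Bst2, chr8:71537423-71537722, minus strand: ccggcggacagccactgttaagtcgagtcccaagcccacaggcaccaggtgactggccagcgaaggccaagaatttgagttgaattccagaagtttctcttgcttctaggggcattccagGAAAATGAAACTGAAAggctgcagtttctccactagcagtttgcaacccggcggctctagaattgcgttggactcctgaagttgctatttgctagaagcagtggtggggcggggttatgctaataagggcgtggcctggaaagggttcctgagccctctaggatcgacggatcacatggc
Isg15, chr4:156200769-156201068, minus strand: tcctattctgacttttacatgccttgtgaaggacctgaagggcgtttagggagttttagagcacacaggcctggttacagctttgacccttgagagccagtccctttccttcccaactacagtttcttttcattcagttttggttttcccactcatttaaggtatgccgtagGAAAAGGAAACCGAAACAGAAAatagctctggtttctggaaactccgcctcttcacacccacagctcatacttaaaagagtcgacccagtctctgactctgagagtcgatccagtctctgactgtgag
Irgm1, chr11:48871371-48871670, minus strand: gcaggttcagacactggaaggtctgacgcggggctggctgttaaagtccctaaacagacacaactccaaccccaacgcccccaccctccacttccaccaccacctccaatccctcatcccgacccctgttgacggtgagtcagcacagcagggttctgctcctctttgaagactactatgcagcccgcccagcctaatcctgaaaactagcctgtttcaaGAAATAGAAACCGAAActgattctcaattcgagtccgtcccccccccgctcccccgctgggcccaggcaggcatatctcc

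Capitals mark matches on either strand, and overlapping matches run together. Promoters were found for 13 of the 16 lower genes (14 promoters), and 8 of these (57.1%) held the motif. Over all 32851 promoters the share was 3.44%, and over the 6 promoters of the other list members tested it was 1 (16.7%). The members were chosen as interferon-stimulated genes, so a share above that of all promoters says nothing about lines and days. Here too a match is not a binding site.

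Bst2 (tetherin), a membrane protein that holds budding virions, was at 250 (day 7), 144 (day 8), 13.4 (iPSC) and 23.7 (ES) (difference -3.34 ± 0.41, adjusted p 0.0863, or 0.00986 in the 11-library fit). Isg15, a ubiquitin-like modifier, was at 7.10, 6.09, 0.162 and 0.264, and Irf7, a regulator of interferon genes, at 4.37, 3.66, 0.231 and 0.149. Irgm1, an immunity-related GTPase, was at 8.59, 13.1, 2.84 and 1.88. All 4 were far lower in both lines, and Isg15 stood at 0.222 and Irf7 at 0.515 on day 4 as well. Isg15 and Irf7 were under 1 in both lines, so they passed the filter through the days alone and could only count as lower. Irf9, a DNA-binding factor of interferon signalling, differed less, at 14.9, 18.2, 11.8 and 8.25. The median level of the list was 4.33 in MEF, 1.44 on day 4, 3.89 (day 7), 3.88 (day 8), 3.29 (iPSC) and 2.55 (ES), in log2(FPKM + 1). In Gatad2a-/- 8 of 20 were higher and 6 lower, near the shares over all genes there (38.3% and 35.8%), with a median of 0.03; Isg15 was at 1.70, 2.44 and 0.511 there. The test of the difference between the systems called 0 of the 20, but only 6 of all 13579 genes in both tables.

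**Figure D2:**
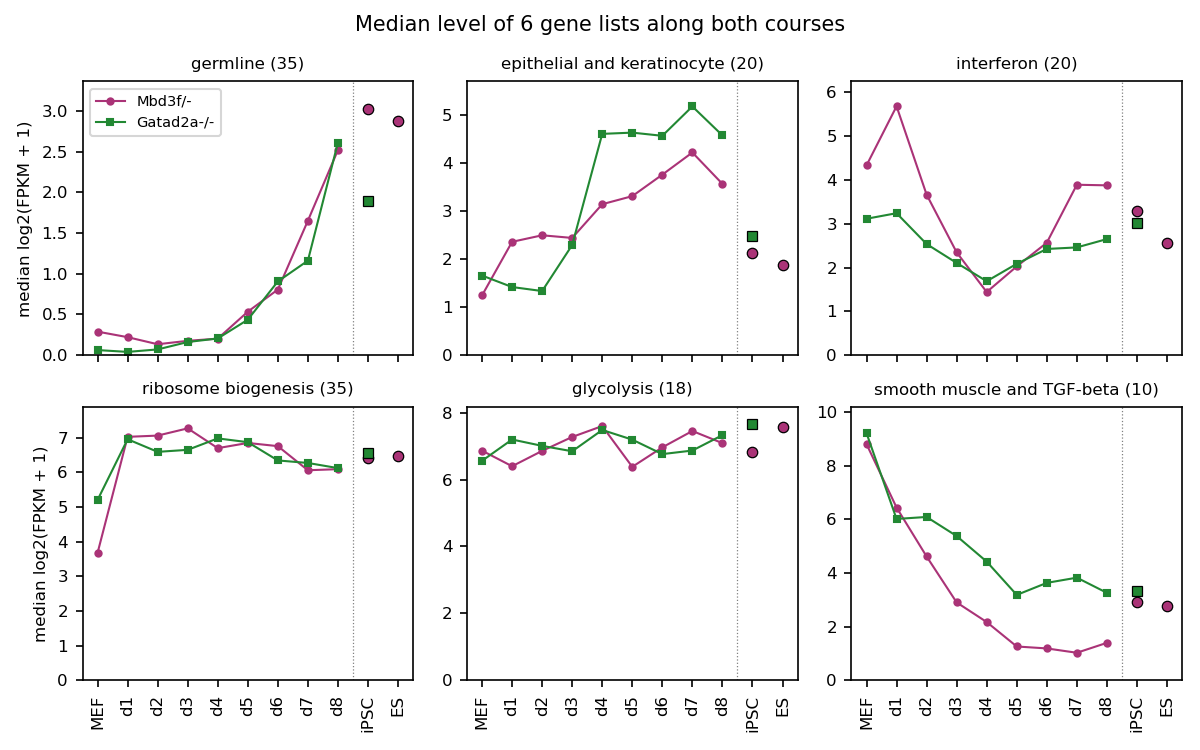
Median log2(FPKM + 1) of the tested members of 6 gene lists in each library of both courses, with the established lines to the right of the dotted line; numbers of genes stand in the panel titles. In Mbd3f/- the germline median is highest in iPSC and ES (3.02 and 2.88), and the epithelial median is highest on day 7 (4.22).

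Targets of MEK and ERK signalling are of interest because 2i holds a MEK inhibitor. Of 17 tested, 7 were higher and 2 lower, against 23.1% and 25.1% of all genes, and 8 overlapped. Besides Etv4, the feedback phosphatase Dusp6 was at 5.03, 4.67, 12.8 and 17.9, the cyclin Ccnd1 at 6.89, 9.49, 26.4 and 29.4, and the inhibitor Spry4 at 2.21, 1.69, 4.50 and 17.4. Other feedback genes overlapped, among them Spry2 (20.8, 26.1, 24.7 and 32.7) and Etv5 (92.0, 96.3, 84.6 and 116). Dusp5, a nuclear ERK phosphatase, went the other way at 11.9, 10.9, 2.01 and 3.25. The median of the list was 0.13, or 0.27 after quantile normalization.

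Genes of smooth muscle and of the response to TGF-beta were higher for 6 of 10 and lower for 2. Over all genes 23.1% were higher and 25.1% lower. Acta2, smooth muscle actin, was at 1.02, 1.16, 7.98 and 7.48, and Tagln, an actin-binding protein, at 0.823, 1.41, 9.06 and 5.74. Tgfbi, a secreted matrix protein, was at 0.783, 1.88, 5.53 and 14.7. All 3 were very low next to MEF, where Acta2 was at 2353. Vim, the intermediate filament of mesenchyme, was at 27.8, 59.3, 155 and 263, against 2009 in MEF. Fibroblast markers went both ways. The fibroblast list had 3 higher and 4 lower of 20 tested. Col1a1, a collagen, was at 8.33, 13.4, 6.68 and 3.23, and Dcn, a matrix proteoglycan, at 2.68, 2.97, 0.177 and 0.903, both lower in the lines. Thy1, a surface protein of fibroblasts, was at 0.993, 2.15, 2.73 and 5.21, and Twist1, a mesenchymal transcription factor, at 0.627, 1.09, 2.79 and 1.21, both higher in the lines. Dcn was under 1 in both lines, so it could only count as lower. The part of other cells in the cultures was not tested. In Gatad2a-/- Acta2 was at 9.73 and 7.84 on days 7 and 8 and 4.23 in iPSC, and 3 of 10 genes were higher there and 5 lower, against 38.3% and 35.8% of all genes.

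Nucleolar and growth genes were higher as a group. Of 35 genes of ribosome biogenesis, 24 were higher and 1 lower, against 23.1% and 25.1% of all genes, with a median of 0.53. Polr1a, the large subunit of RNA polymerase I, was at 10.4, 13.3, 32.2 and 27.4 and passed in the 11-library fit (adjusted p 0.0223). Ncl, nucleolin, was at 143, 174, 227 and 401, Odc1, of polyamine synthesis, at 64.4, 73.0, 92.1 and 193, and Srm, spermidine synthase, at 82.2, 101, 148 and 188. Differences were modest and ran in one direction, and ES was mostly above iPSC: the median was 0.34 for iPSC and 0.78 for ES. Ribosomal protein genes themselves were 3 higher and 10 lower of 38, the latter near the 25.1% of all genes. Their median was 0.01 (-0.15 after quantile normalization), from -0.22 for iPSC and 0.25 for ES.

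Enzymes that feed nucleotide and methyl group synthesis were higher as well for part of the lists. Over all genes 23.1% were higher and 25.1% lower. One-carbon genes were higher for 9 of 18 and lower for 0; Mthfd2, of the mitochondrial folate cycle, was at 59.4, 65.6, 104 and 141 and Mat2a, which makes S-adenosylmethionine, at 52.2, 76.6, 125 and 179. Genes of the amino acid response were higher for 12 of 24 and lower for 3, with Chac1 at 14.7, 26.9, 35.2 and 36.5, while Ddit3 was lower (43.8, 38.9, 29.2 and 20.7). Cell cycle genes were higher for 14 of 33 and lower for 1. Their median was 0.07 for iPSC and 0.43 for ES, so the difference came mainly from ES. Ccne1, the cyclin of the G1 to S transition, was at 61.2, 58.9, 77.1 and 181, and the replication clamp Pcna at 90.6, 97.2, 135 and 147. Cholesterol synthesis had 9 of 23 higher and 1 lower, and in Gatad2a-/- 22 of 23 were higher, against 38.3% of all genes there. Nuclear genes of oxidative phosphorylation had 11 of 31 higher and 2 lower. Their median was 0.01 for iPSC and 0.63 for ES, so here too the difference came mainly from ES. After quantile normalization the higher counts were 7 (one-carbon), 8 (amino acid), 10 (cell cycle), 10 (cholesterol) and 8 (oxidative phosphorylation). Over all genes the higher count was then 3500 of 13581.

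**Figure D3:**
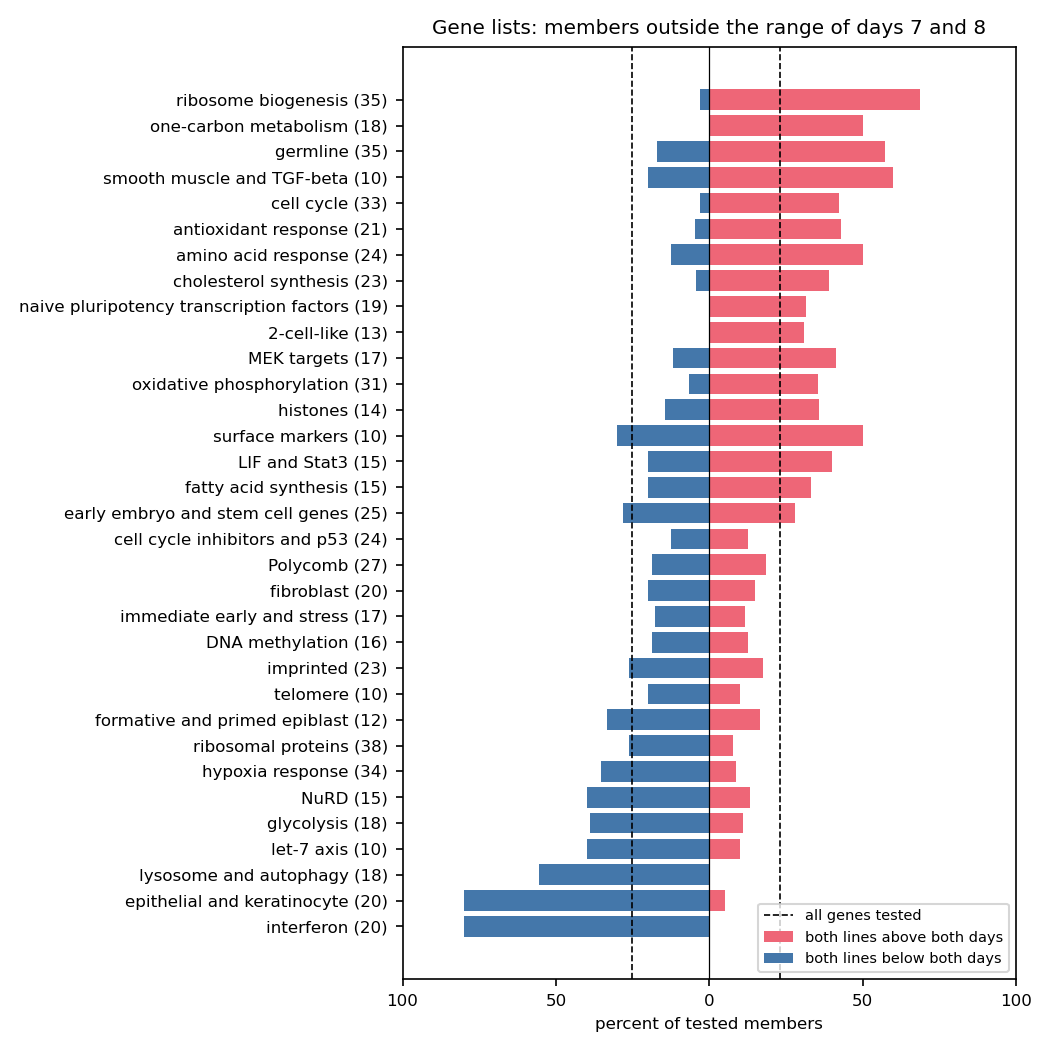
Percent of the tested members of each list (number in brackets, lists with at least 10) for which both lines lay above (red, to the right) or below (blue, to the left) both days. Dashed lines give the share over all 13581 genes, 23.1% and 25.1%; ribosome biogenesis, smooth muscle and germline genes lie furthest to the right and interferon and epithelial genes furthest to the left.

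Over all genes 25.1% were lower and 23.1% higher. Glycolysis was lower for 7 of 18 genes and higher for 2, with a median of -0.46. Pfkl, a phosphofructokinase, was at 149, 107, 28.3 and 49.9, Pfkm at 42.0, 41.3, 11.7 and 16.2, and the enolase Eno2 at 14.7, 9.02, 2.38 and 2.02. All were lower in both lines, but over the list iPSC and ES differed, at -0.86 and -0.08. Genes of the hypoxia response were lower for 12 of 34 and higher for 3, led by Ndrg1 (47.5, 28.7, 3.22 and 16.7) and the lactate exporter Slc16a3 (84.7, 58.3, 19.7 and 35.2). The median of the hypoxia list was -0.56 for iPSC and -0.11 for ES. Days 7 and 8 were at 5% oxygen, and the oxygen of the lines is not given. In Gatad2a-/- the medians had the other sign, 0.50 for glycolysis and 0.60 for hypoxia. The test of the difference called 0 genes of either list, but only 6 of all 13579 genes in both tables. Genes of the antioxidant response were higher for 9 of 21 and lower for 1, with Nqo1 at 6.57, 7.82, 33.5 and 15.8 and Srxn1 at 8.50, 11.7, 32.2 and 32.1, both classic targets of Nrf2.

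Lysosome and autophagy genes were lower for 10 of 18 and higher for 0, against 25.1% and 23.1% of all genes. Tfe3, a transcription factor of that program whose exit from the nucleus is tied to the loss of naive pluripotency, was at 49.4, 46.6, 21.6 and 23.5 and passed in the 11-library fit (adjusted p 0.0351). Gpnmb, a glycoprotein of lysosomes and macrophages, was at 16.6, 33.2, 2.07 and 0.281. Macrophage markers other than Cd68 were below 1 in all 4 libraries, so they did not pass the filter. Among these markers, Lyz2, lysozyme, was at 0.611, 0.425, 0.0347 and 0.0808, too low to read a direction. Their part in the result was not tested. Igf2bp2, an RNA-binding protein repressed by let-7, was at 102, 76.0, 27.6 and 19.9 (adjusted p 0.00772 in the 11-library fit). Xist, the RNA of X inactivation, was at 3.88, 8.12, 0.303 and 0.516, and its antisense Tsix at 0.594, 1.96, 3.47 and 3.84. Xist was under 1 in both lines, so it passed the filter through the days alone and could only count as lower. The library kit does not mark strand, so reads of Xist and Tsix where they overlap cannot be told apart. Meg3, of the imprinted Dlk1 region, was at 169, 85.8, 70.0 and 4.21, lower in both lines but by far lowest in ES.

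The lines differed from each other more than the days did. Day 7 and day 8 were at least 1 log2 unit apart in 2.23% of genes, iPSC and ES in 16.8%, and day 8 and iPSC in 8.24%. Pearson correlations over the 13581 genes, which are no independent replicates, were 0.979 for the days, 0.928 for the lines and 0.949 for day 8 with iPSC. The iPSC library was therefore nearer to day 8 than to ES. Over all 13581 genes, day 8 was nearer to the lines than day 7 in 59.3%. Among named differences, Dnmt3l, a cofactor of DNA methyltransferases (picked after its values were seen), was at 90.9, 100, 12.6 and 113, so iPSC alone was low. The metallothionein Mt2 was at 138, 293, 1076 and 57.1 and its neighbour Mt1 at 194, 196, 573 and 55.2, so ES was low and iPSC high. The ribosomal protein gene Rplp1, among the largest differences between the lines, was at 1173, 1238, 1416 and 63.7. As a list, ribosomal protein genes went the other way, with medians of -0.22 for iPSC and 0.25 for ES. Over protein-coding genes the median of ES minus iPSC was 0.10 for the shortest 5% by transcript length and -0.45 for the longest 25%, so length moved with the difference between the lines. The 2-cell-like list had opposite medians in the lines, -0.42 in iPSC and 1.23 in ES.

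**Figure D4:**
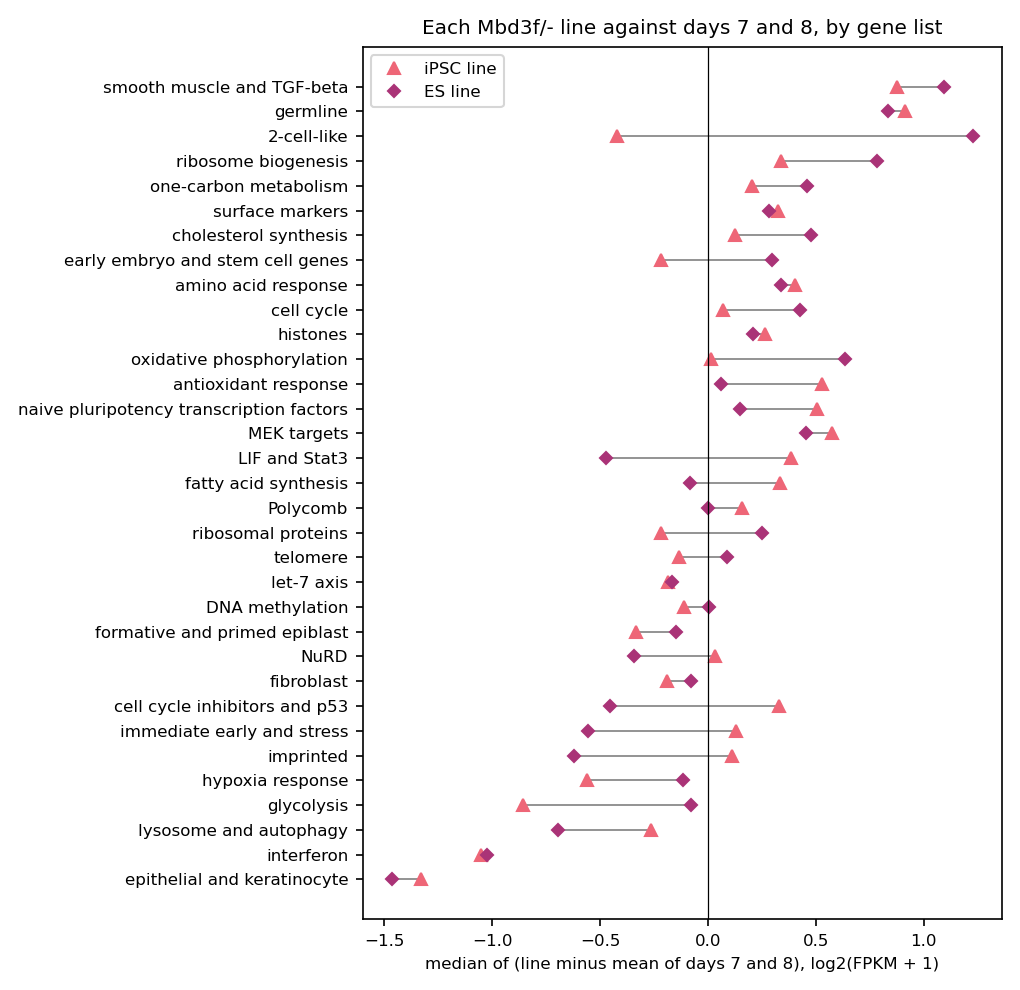
Median difference of each list from the mean of days 7 and 8, in log2(FPKM + 1), drawn separately for the iPSC line (triangles) and the ES line (diamonds). Epithelial, interferon and germline lists lie close together in both lines; 2-cell-like, LIF and Stat3, and imprinted lists lie on opposite sides of 0.

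Gatad2a-/- libraries, which the choice of genes did not use, served as a second set of days and line. Of the 3132 higher genes, 1880 (60%) were also above both Gatad2a-/- days in its iPSC line, where 38.3% of all genes in both tables were (36.5% of the 17465 genes of the joint filter); 532 (17%) lay below. Of 3409 lower genes in both tables, 1874 (55%) were also below, against 35.8% of all genes (36.7% with the joint filter), and 697 (20.4%) lay above. As a share of the Gatad2a-/- genes, these were 36.1% and 38.6%. Agreement was greater for wide gaps: 110 of the 160 higher genes (68.8%) and 260 of the 313 lower genes (83.1%) were on the same side. Of the 15 named genes in each direction, 12 higher and 14 lower ones were on the same side, among them Pla2g1b (11.8, 18.4 and 191 on day 7, day 8 and in iPSC), Mras (4.57, 7.06 and 49.8) and Clec2i (29.1, 31.6 and 0.246). In the joint fit of 7 libraries, limma called 12 genes higher (0.0687%) and 214 lower (1.23%) in the Gatad2a-/- line. The difference between the changes of the systems passed for 45 genes in one direction (0.258%) and 2 in the other (0.0115%), 47 in all. That count was 0 without the Mbd3f/- library of day 7 or of day 8, 14 without its iPSC, 6 without its ES, and 1065 or 1106 without day 7 or day 8 of Gatad2a-/-. The 226 Gatad2a-/- calls were 37 without either Mbd3f/- day, 76 and 75 without its lines, and 1251 and 1323 without its own days. Of the 47, 36 were short RNAs and 38 were listed at 0 in all 4 Mbd3f/- libraries.

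**Figure D5:**
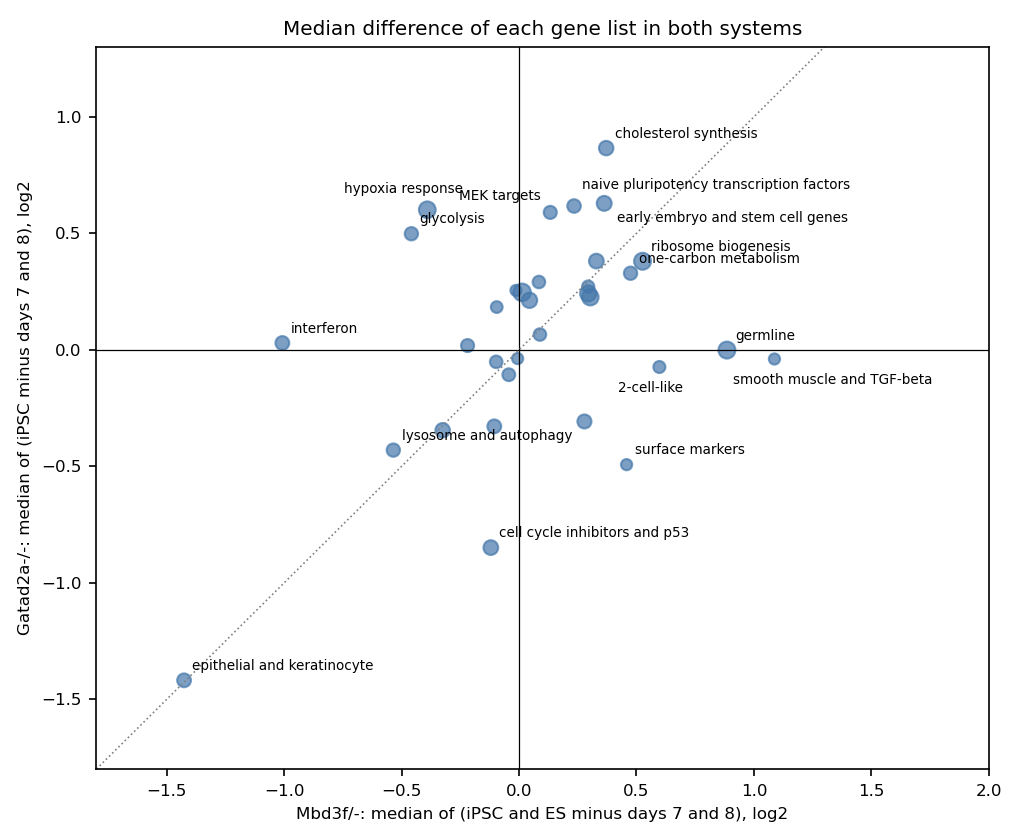
Median difference between lines and days 7 and 8 for each list, Mbd3f/- on the horizontal and Gatad2a-/- on the vertical axis, both in log2(FPKM + 1); the dotted line marks equal values and point size grows with the number of genes. Epithelial genes lie near equality at -1.43 and -1.42, while interferon and germline genes lie at -1.01 and 0.89 in Mbd3f/- and at 0.03 and near 0 in Gatad2a-/-.

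Along the whole Mbd3f/- course the widely separated genes had no single history. The choice of these genes keeps days 7 and 8 from being highest for the higher ones and the lines from being highest for the lower ones, so only MEF and days 1 to 6 are free. Of the 160 that were higher by a gap of at least 1, 27 had their highest level in MEF and 21 on days 1 to 6, and the other 112 in a line. Their median in MEF was 0.43 in log2(FPKM + 1), against 3.42 for all genes tested. The 313 lower genes had a median of 2.04 in MEF and 2.25 on day 4, against 3.42 and 3.31 for all genes tested.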

How the data were processed

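The authors deposited 1 table of FPKM per gene for each system; per the submitters' processing notes, the build was mm10 and the tools were Cufflinks 2.2.1, TopHat2 2.0.10 and CASAVA 1.8.2. No source names the annotation release. FPKM hold no read counts, so depth is unknown, and a listed 0 can be a failed estimate: all 37 mitochondrial genes are listed at 0. Rows that share a gene identifier (22) were summed, and 27 symbols that had become dates were replaced by identifier from GENCODE.

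Genes that reached an FPKM of 1 numbered 13149 (day 7), 13253 (day 8), 13488 (iPSC) and 12805 (ES). Values were tested as log2(FPKM + 1), which understates changes of low genes, with limma 3.58.1 in R 4.3.3 (eBayes with trend and robust, two-sided, Benjamini-Hochberg over all genes, threshold 0.05). The fit of the 4 libraries has 2 residual degrees of freedom, that of 7 libraries with Gatad2a-/- 3, and that of 11 libraries, which groups the days in pairs, 5. Only the 4-library fit was tested on simulated data, with the observed spread and with a smaller one. A list is described by counts and its median, beside those of all genes. A gene under 1 in both libraries of 1 group passed the 4-library filter through the other group alone, which fixed its side. Counts of the lists, of the chromosome regions and of all genes include such genes. Promoters and gene positions are of GRCm38.

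Named genes are the 15 largest differences in each direction with an FPKM of at least 5 in both libraries of the higher group (predicted genes left out), up to 2 members of each of 44 lists, and Mbd3, Gatad2a, Pou5f1, Sox2, Klf4, Myc and Nanog. Further list members, Arl1, Ap3b1, Cd68, the genes set between iPSC and ES and the limit of 1 log2 unit for wide gaps were chosen after their values were seen. Members and lists were chosen with earlier results of these data known. Alternatives are given in the closing section.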

Additional observations from a re-analysis of the deposited data

Results flagged for a closer look

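The difference between the Mbd3f/- and Gatad2a-/- changes passed the limma test for 47 genes, 45 of them with a higher and 2 with a lower change in Mbd3f/-. The 2 were Mir1191 (-4.43) and Grin1 (-4.31), a glutamate receptor subunit. Grin1 was at 29.4 and 29.9 (days 7 and 8), 2.87 (iPSC) and 3.26 (ES), and in Gatad2a-/- at 4.73, 4.30 and 13.5 on days 7 and 8 and in iPSC (limma adjusted p 0.0172). The bHLH gene Arntl2 (5.29) was at 2.12, 2.04, 3.05 and 3.69 in Mbd3f/- and at 27.2, 37.4 and 0.189 in Gatad2a-/-. Mir5103 (5.18), Mir503 (6.16), Snord99 (7.36) and the entry H19_2 (11.55) were listed at 0 in all 4 Mbd3f/- libraries, so their differences come from Gatad2a-/- alone. The split of 45 to 2 depended on the filter: without it, more genes had a lower than a higher change in Mbd3f/-. The count of 47 was 0 when Mbd3f/- day 7 or day 8 was left out.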

How the results depend on the processing

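The 4-library count of 0 called genes remained 0 with pseudocounts of 0.1 and 5, without a filter, with an FPKM minimum of 5 and with upper-quartile scaling. It was 9 after quantile normalization, 16 without trend and robust, 63 in the 7-library fit, 467 with 11 libraries and 1 for protein-coding genes (chosen after seeing the data). Leaving out 1 of the 4 libraries, whose group's lone sample is then assumed to vary like the others, gave 3 (without day 8) to 3971 (without iPSC) calls, or 4 (day 7), 134 (day 8), 292 (ES) and 2793 (iPSC) with all other Mbd3f/- libraries. The 6542 genes outside the range of the days were 10946 without a filter and 8232 to 12034 with 1 library left out. The Gatad2a-/- count of 226 became 811 without a filter, 138 with an FPKM minimum of 5, 30 for protein-coding genes and 37 to 1323 with 1 library left out. The 47 genes that differed between systems became 140 with a pseudocount of 0.1, 424 without a filter, 31 with an FPKM minimum of 5, 6 for protein-coding genes and 0 to 1106 with 1 library left out. With 1 library left out, Sox2 ran from -0.31 to 0.10 (reversed without day 8), Gatad2a from -0.54 to 0.26 and Pou5f1 from -0.073 to 0.65 (both reversed without ES), in the 4-library and the 11-library fit alike. For named genes, 463 other values kept direction and call, and 157 passed the threshold where the 4-library fit did not; the cause was not tested. No paired analysis was possible because the numbers 1 and 2 stand for successive days and for different lines. Depth is unknown, so no counting error can be given.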

Other observations

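A stretch of chromosome 4 that holds a cluster of KRAB zinc finger genes held many genes that were higher in both lines. In a window that was chosen after the values were seen (tested genes from 145213463 to 147947314, GRCm38), 28 protein-coding genes were tested. Of these, 19 were higher and 3 lower, against 2681 and 2970 of all 11503 protein-coding genes, and their median difference was 1.13 against -0.03. The window also holds genes outside the cluster, among them the higher Tnfrsf1b, Tnfrsf8 and Mfn2 and all 3 lower genes, Miip, Fv1 and Plod1. Zfp600 was at 4.79 (day 7), 17.3 (day 8), 41.6 (iPSC) and 46.3 (ES), and Zfp534 at 10.2, 19.9, 30.2 and 54.0. In Gatad2a-/- 20 of the 28 were higher and 3 lower, against 4385 and 4294 of the 11503, with a median of 1.27. Many members of this cluster are close copies, so their values are uncertain one by one.

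Protein-coding genes of the Y chromosome were lower in both lines for 14 of 17 tested and higher for 0, against 2970 and 2681 of the 11503. Of the 14, 8 are Rbmy and 7 predicted genes with parallel values, which may share reads and are not independent. These 8, Zfy1 and Kdm5d were under 1 in both lines. They passed the filter through the days alone and could only count as lower. The other lower genes were Eif2s3y, Uty, Ddx3y and Erdr1. Kdm5d, a histone demethylase, was at 5.18 (day 7), 5.76 (day 8), 0.537 (iPSC) and 0.0543 (ES), and Eif2s3y, a translation initiation factor, at 76.1, 86.4, 39.0 and 27.0. Ddx3y, an RNA helicase, was at 18.6, 16.6, 15.1 and 5.16. Rbmy, of a multicopy family whose counts are uncertain, was at 9.24, 5.08, 0.233 and 0.0287. In Gatad2a-/- 13 of the 17 were lower and 0 higher, against 4294 and 4385 of the 11503, with a median of -1.29. The 13 again include the 8 genes with parallel values. Kdm5d was at 3.45 and 4.69 on days 7 and 8 and 0.157 in iPSC there, while Ddx3y was at 24.0, 34.8 and 28.6 and overlapped. Chromosome 7 had the largest share of lower genes among the autosomes, 337 of 926 (36.4%), with 16.1% higher.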
